A study of Mus musculus with 6 samples.

Results

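Chemokines, cytokines and their receptors are the secreted messengers and cell-surface sensors of inflammation and immune-cell traffic, and many are also made by cells of the ovarian follicle. The genes were taken by symbol from the deposited table of mouse granulosa cells (GCs): numbered CC, CXC and CX3C chemokines and their receptors, atypical chemokine receptors, interleukins and interleukin receptors, the tumor necrosis factor (TNF) ligand and receptor superfamilies, colony-stimulating factors and their receptors, and *Lif*, *Lifr* and *Osmr*. This rule found 76 of the 16300 genes, of which 32 are ligand genes, with a binding protein and an antisense RNA counted among them, and 44 are receptor genes. All 76 passed the filter on low values and were tested. The study asked how androgen changes GC transcription. RNA-seq was run on 3 control libraries, from GCs kept in medium, and on 3 libraries from GCs given 25 nM dihydrotestosterone (DHT), an androgen that aromatase cannot turn into estrogen, for 24 h. According to the methods, the GCs came from ovaries of wild-type C57BL/6J mice aged 8 to 9 weeks, and the cells of 5 mice were pooled for each library. The cells of both groups were cultured for 48 h and kept without serum for 4 h before treatment, so every value describes GCs in culture and not a follicle in the ovary. The labels name the extracted material as ovary and give DHT in the free text on treatment for all samples, and only the characteristic that separates control from DHT set the groups.

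Chemokines form concentration gradients that steer leukocytes through G protein-coupled receptors, while atypical chemokine receptors bind chemokines without classical G protein signalling and remove them. Interleukins, LIF and the colony-stimulating factors mostly signal through JAK kinases and STAT factors, whereas TNF, IL-1 and IL-17 receptors lead to NF-κB. In the ovary, these signals are known for recruiting macrophages and neutrophils around ovulation, and CXCL12 is known as a factor made by GCs.

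The RNA of these genes was a small part of each library, with 37860 to 47699 of the 36111177 to 41928585 reads on genes. Of 14 GC marker genes, 13 were listed, all but the aromatase gene *Cyp19a1*. The highest was *Cyp11a1*, the gene of the enzyme that opens steroid synthesis, at 80557 to 97025 normalized counts in control and 108458 to 132928 in DHT-treated GCs. The lowest were the receptor gene *Fshr* at 140 to 168 and 135 to 159 and *Amh* at 75 to 196 and 63.3 to 171. Of the 13, 5 passed the test, 38.5% beside 11.2% of all genes tested: *Cyp11a1* and *Hsd17b1* were higher (log2 fold changes of 0.49 and 0.48), and *Inha* (-0.61), *Esr2* (-0.36) and *Foxl2* (-0.15) lower. Among 23 leukocyte markers, 11 were listed, and none passed the limma test at an adjusted p of at most 0.05 or at an unadjusted p under 0.05. Their sum ran from 522 to 629 in control and from 425 to 702 in DHT-treated GCs. *Ptprc*, which encodes the pan-leukocyte antigen CD45, was at 5.94 to 11.1 in control and 12.0 to 15.7 in DHT-treated libraries. The 6 listed endothelial markers of 10 summed to 285 to 332 in control and 251 to 339 in DHT-treated GCs. The 7 surface epithelium markers summed to 4105 to 4800 and 3254 to 4487, and neither list held a called gene, with 1 and 2 genes at an unadjusted p under 0.05, beside 25.2% of all genes tested. Of 10 theca and stromal markers, 8 were listed, and the theca genes *Cyp17a1* and *Insl3* were not. The 8 summed to 8348 to 12083 in control and 13366 to 15783 in DHT-treated GCs. Of these, 1 passed the test, the smooth muscle actin gene *Acta2*, at 4293 to 6425 and 8217 to 9735. *Acta2* and *Tagln*, another smooth muscle gene, at 2055 to 3273 and 3480 to 4055, made up most of this sum, while 5 of the 8 had negative log2 fold changes, from -1.05 for *Dcn* to -0.13 for *Col1a1*, and did not pass. The 8 oocyte markers summed to 375 to 895 and 109 to 705, and the lowest sum was that of DHT replicate 2. In bulk RNA, fewer cells of a type and less RNA per cell cannot be told apart.

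A small number of the 76 genes changed under DHT, and the 3 largest of these changes were in CXC chemokines. Fold changes are DHT over control on the scale of log2(normalized count + 1), which understates the change of low genes, and are given with the standard error of the limma fit (SE). At an adjusted p of at most 0.05, 12 of the 76 genes were called, 6 higher and 6 lower. This was 15.8% of the genes, beside 11.2% of all 16292 genes tested (6.52% higher and 4.66% lower). With an absolute log2 fold change above 1 as well, the called genes were *Cxcl5* and *Cxcl1*, which were higher, and *Cxcl12*, which was lower. The same pair of thresholds called 1.31% of all genes tested, 0.908% as higher and 0.399% as lower. The lowest and highest of 3 values did not overlap between groups for 30 of the 76 genes, 15 in each direction, beside 30.6% of all genes tested. The median log2 fold change of the 76 genes was 0.02, beside -0.01 over all genes tested, and 60 of the 76 lay within 0.5 of zero on the log2 scale. The ligands held 7 of the calls, 5 higher and 2 lower, and the receptors held 5, 1 higher and 4 lower. Whether ligands and receptors differ in direction was not tested. The number of calls depended on single libraries: it was 14 without control replicate 3, beside 13.0% of all genes tested, and 4 without DHT replicate 3, beside 5.77%. The share of the 76 genes called was then 18.4% and 5.33%.

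**Figure D1:**
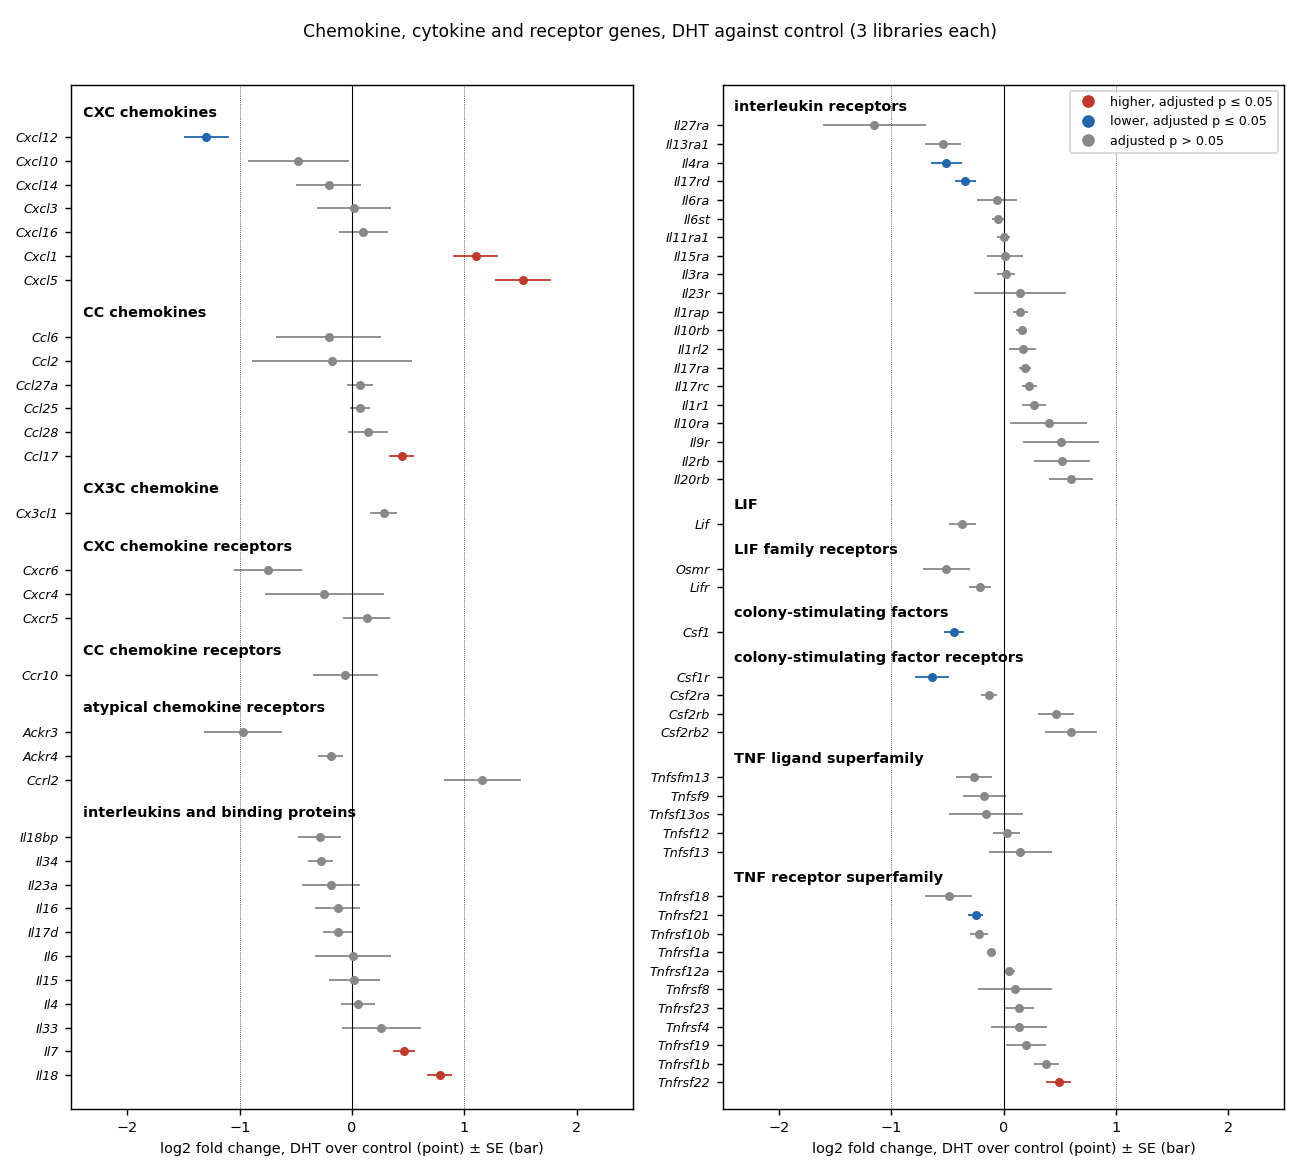
Log2 fold change (DHT over control, x axis) of each of the 76 genes, grouped by family, with bars of 1 SE and dotted lines at a log2 fold change of 1 in either direction. *Cxcl5* at 1.52 and *Cxcl12* at -1.30 are the outermost called genes, and most grey points lie near zero.

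The CXC chemokines gave the largest called changes, in both directions. *Cxcl5* and *Cxcl1*, whose products attract neutrophils through the receptor CXCR2, were upregulated, and *Cxcl12*, whose product guides CXCR4-bearing cells and is made by many resting tissues, was downregulated. *Cxcl5* (ENSMUSG00000029371, GRCm38 chr5:90759360-90761624, plus strand) stood at 147, 331 and 276 normalized counts in control replicates 1 to 3 and at 713, 629 and 710 in DHT-treated replicates 1 to 3. Every DHT-treated library was above every control library, and control replicate 1 was the lowest of all. The means were 251 ± 94.1 and 684 ± 47.4 (SD, n = 3), a log2 fold change of 1.52 (SE 0.25, adjusted p = 0.0049). *Cxcl1* (ENSMUSG00000029380, chr5:90891241-90893115, plus strand) stood at 333, 337 and 614 in control and at 814, 908 and 921 in DHT-treated GCs. The groups did not overlap, although control replicate 3 lay well above the other control libraries. The log2 fold change was 1.10 (SE 0.20, adjusted p = 0.0096), and it was 0.95 without control replicate 1 and 0.96 without control replicate 2, under the fold threshold. *Cxcl12* (ENSMUSG00000061353, chr6:117168535-117181367, plus strand) stood at 5317, 3293 and 5491 in control and at 2313, 1787 and 1551 in DHT-treated GCs. Each DHT-treated library was below the lowest control library, which was replicate 2. The means were 4700 ± 1222 and 1884 ± 390 (SD, n = 3), a log2 fold change of -1.30 (SE 0.20, adjusted p = 0.0035). All 3 genes kept an adjusted p of at most 0.05 whichever library was left out, but none kept it in a fit without the intensity trend, where it was 0.06 for *Cxcl5*, 0.08 for *Cxcl1* and 0.054 for *Cxcl12*.

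**Figure D2:**
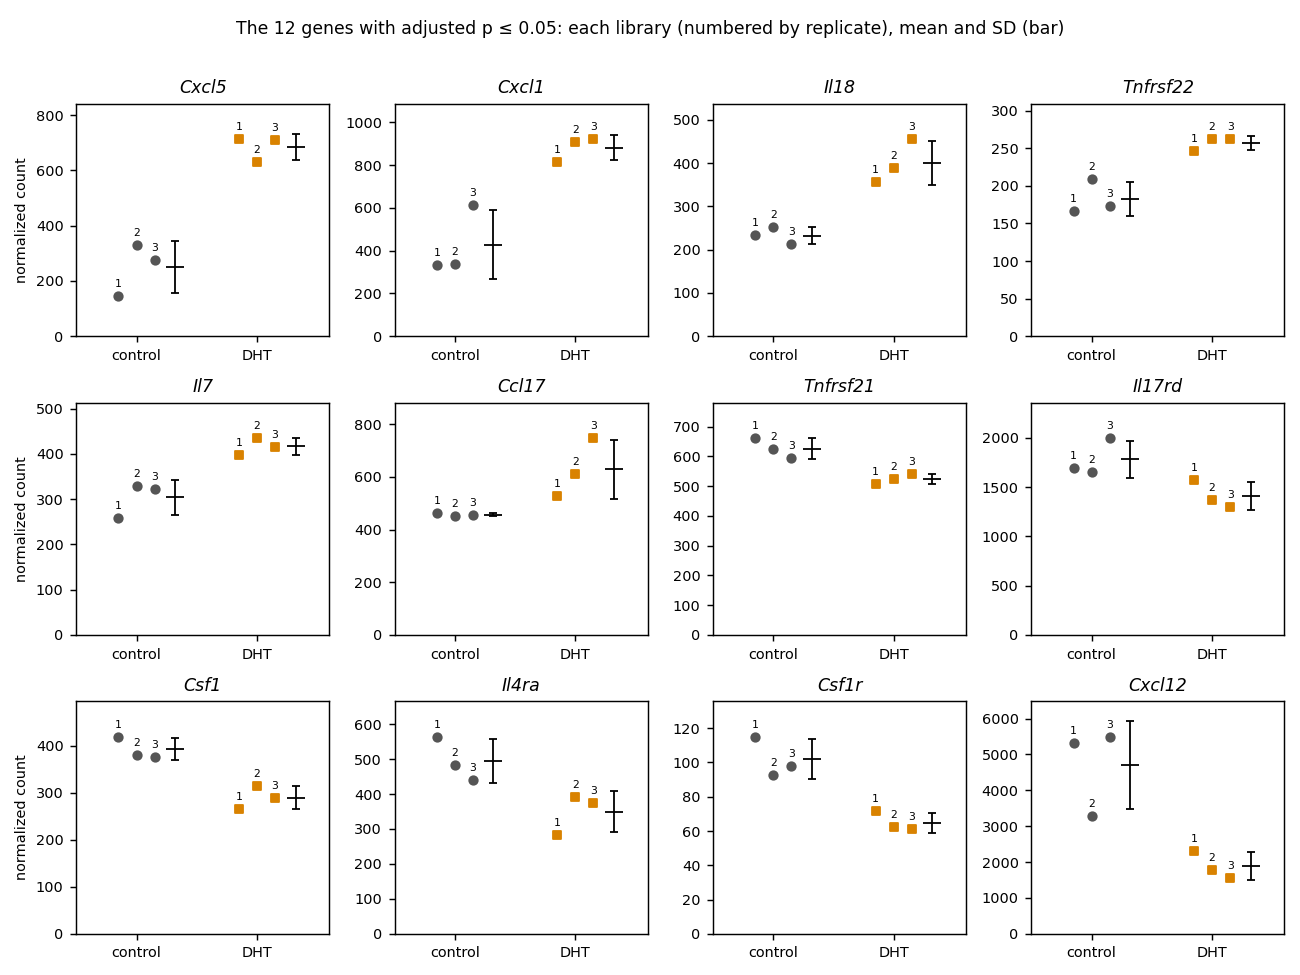
Normalized counts (y axis, linear from 0) of the 12 called genes in each library, with circles for control, squares for DHT-treated GCs, replicate numbers beside the points, and the mean with its SD at the right of each group. The groups do not overlap in any of the 12 panels, and control replicate 3 stands apart from the other control libraries in *Cxcl1*.

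*Cxcl5* and *Cxcl1* lie on the same strand of chromosome 5, 129.6 kb apart, with *Cxcl3*, another neutrophil-attracting chemokine gene, between them. *Cxcl3* (chr5:90786103-90789600) was at 9.89, 12.1 and 11.1 in control and 9.79, 8.73 and 16.3 in DHT-treated GCs. These ranges overlapped, at levels of about 10 normalized counts, and the difference did not pass (log2 fold change 0.02, SE 0.33, adjusted p = 0.97). The bases before the start sites of *Cxcl1* and *Cxcl3* are shown because the paralogs share a motif there while their levels differ. They come from RefSeq (GRCm38.p6), whose promoter table matched 55 of the 76 genes, and capitals mark matches on either strand to GGG and TTTCC with any 2 bases between, a form of the κB site that NF-κB binds.
*Cxcl1*, chr5:90891126-90891213, plus strand: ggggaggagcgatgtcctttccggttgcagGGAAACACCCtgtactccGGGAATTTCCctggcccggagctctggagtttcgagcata
*Cxcl3*, chr5:90785998-90786067, plus strand: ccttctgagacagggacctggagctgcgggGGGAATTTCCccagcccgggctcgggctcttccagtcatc
*Cxcl1* held 2 matches, from 89 to 80 and from 71 to 62 bases before its start site, and the second is written with the same 10 bases as the single match of *Cxcl3*, from 73 to 64 bases before its own start site. Counted by gene, over all windows of 250 bases that a gene has, this form occurred in 1.65% of the 27025 genes of the promoter table and in 7 of the 55 matched genes of the list. *Csf1*, which is described below and was lower in DHT-treated GCs, was among the 7, with 1 match from 154 to 145 bases before its start site.
*Csf1*, chr3:107760584-107760653, minus strand: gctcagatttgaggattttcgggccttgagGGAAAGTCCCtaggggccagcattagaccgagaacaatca
The 250 bases before *Cxcl12* held no match to it, and no entry matched *Cxcl5*.
*Cxcl12*, chr6:117168285-117168534, plus strand: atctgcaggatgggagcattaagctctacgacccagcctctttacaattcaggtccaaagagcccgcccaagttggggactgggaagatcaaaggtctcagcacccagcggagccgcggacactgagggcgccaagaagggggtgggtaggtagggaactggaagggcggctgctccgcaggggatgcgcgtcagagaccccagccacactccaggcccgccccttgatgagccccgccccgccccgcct
The full androgen response element, an inverted repeat of AGAACA with 3 bases between the repeats, was found in 0 of the 55 matched genes and in 0.0111% of the genes of the table. The single AGAACA, which the full element contains, was found in 8 of the 55 and in 18.2% of the genes of the table. The STAT form TTCNNNGAA was found in 6 of the 55 and 8.13% of the table, and the core ACGTG of the site bound by hypoxia-inducible factor in 12 of the 55 and 18.5% of the table. Among the called genes, AGAACA was found before *Csf1*, from 124 to 119 bases before its start site, and before *Il18*, from 74 to 69. The STAT form was found before *Ccl17*, and ACGTG before *Cxcl1* and *Tnfrsf21*. All were searched on both strands, and a match is a stretch of letters and not a measured binding site.

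The opposite changes altered the make-up of the CXC ligand RNA. Levels were divided by the exonic length of each gene so that genes could be compared, and summed over the 7 CXC ligands. *Cxcl12* made up 66.2%, 47.8% and 56.0% of this sum in control replicates 1 to 3 and 24.7%, 19.7% and 16.7% in the DHT-treated replicates. *Cxcl1* and *Cxcl5* together made up 26.2%, 42.4% and 39.6% in control and 71.3%, 74.1% and 76.9% in DHT-treated GCs. *Cxcl12* was thus the more abundant RNA per length in each control library, with a ratio to the sum of *Cxcl1* and *Cxcl5* of 2.53, 1.13 and 1.41, and the less abundant in each DHT-treated library, with ratios of 0.346, 0.266 and 0.218. No test was made of the shares, since they follow from the 3 genes tested above.

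**Figure D3:**
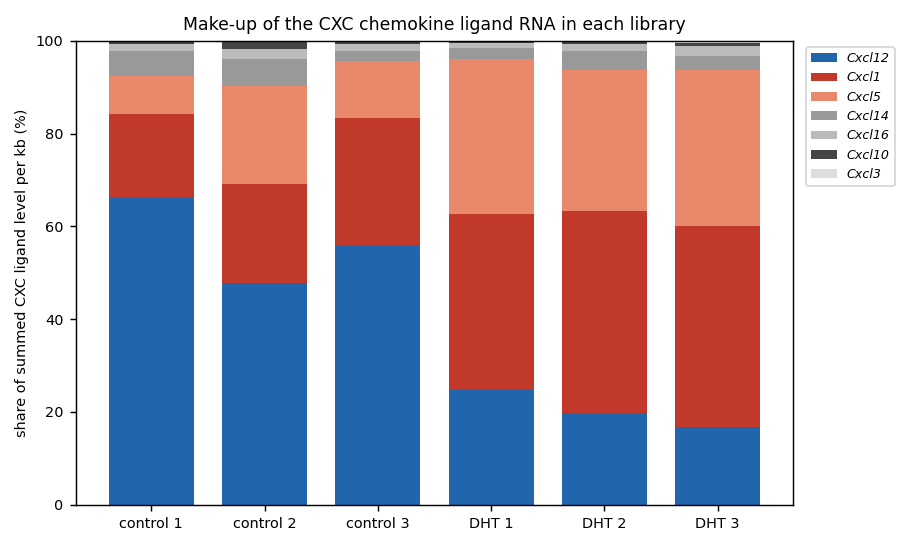
Share of each CXC ligand in the summed level per kb of exon (y axis, percent) in each of the 6 libraries, as stacked bars. The *Cxcl12* share is at least 47.8% in the control libraries and at most 24.7% in the DHT-treated libraries.

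The other CXC ligands did not pass the test. *Cxcl14*, at 47.2 to 98.0 in control and 48.9 to 81.8 in DHT-treated GCs, *Cxcl16*, at 43.5 to 54.7 and 41.1 to 69.6, and *Cxcl10*, an interferon-induced chemokine gene at 9.89 to 26.9 and 6.85 to 17.4, overlapped between groups. Of the 6 CC chemokines, 1 was called, which was 16.7% beside 11.2% of all genes tested. It was *Ccl17*, which encodes a ligand of the T-cell receptor CCR4. It stood at 464, 452 and 456 in control and at 528, 611 and 748 in DHT-treated GCs, for a log2 fold change of 0.44 (SE 0.11, adjusted p = 0.036). The control libraries were close together, and the DHT-treated libraries were all higher and spread more. Its call was lost without any one of control replicates 1, 2 and 3 or DHT replicates 2 and 3, with an adjusted p of up to 0.1. *Ccl2*, which encodes the monocyte attractant MCP-1, was near the lower limit of the table at 6.48 to 17.7 and 1.96 to 19.6. The other CC ligand genes, *Ccl6*, *Ccl25*, *Ccl27a* and *Ccl28*, had overlapping groups and log2 fold changes from -0.21 to 0.14. *Cx3cl1*, which encodes the membrane-tethered chemokine fractalkine and lies 28.0 kb from *Ccl17* on chromosome 8, was at 1166, 1352 and 1734 in control and at 1699, 1700 and 1689 in DHT-treated GCs. The control libraries spread widely while the DHT-treated ones were nearly equal, and the difference did not pass (log2 fold change 0.28, adjusted p = 0.18). Without control replicate 3, its log2 fold change was 0.43 with an adjusted p of 0.0029.

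None of the 7 chemokine receptor genes passed the test, beside 11.2% of all genes tested. An unadjusted p under 0.05 was reached by 3 of the 7, beside 25.2% of all genes tested. *Cxcr4*, the signalling receptor of CXCL12, was at 6.93, 15.8 and 9.26 in control and at 13.7, 3.27 and 12.0 in DHT-treated GCs, with overlapping groups and the lowest value in DHT replicate 2. *Ackr3*, the atypical receptor that removes CXCL12, was at 142, 102 and 48.2 in control and at 38.2, 42.5 and 55.5 in DHT-treated GCs. Control replicate 3 lay within the range of the DHT-treated libraries, and the log2 fold change of -0.97 (SE 0.35) had an adjusted p of 0.12. *Ccrl2*, an atypical receptor gene whose product binds chemerin, showed the opposite sign, with 39.6, 34.4 and 98.2 in control and 126, 110 and 111 in DHT-treated GCs. The groups did not overlap, but control replicate 3 was close to the DHT-treated libraries, and the log2 fold change of 1.16 (SE 0.34) had an adjusted p of 0.062. Both genes passed when control replicate 3 was left out, *Ackr3* at a log2 fold change of -1.41 (adjusted p = 0.0044) and *Ccrl2* at 1.62 (adjusted p = 0.00056). The same library held the highest control value of *Cxcl1*. *Ackr4*, which encodes a scavenger of CCL25 and other CC chemokines, had the highest level per length of the chemokine receptors, and stood at 336 to 429 in control and 305 to 374 in DHT-treated GCs. *Cxcr6*, a receptor gene of T cells, was at 15.7 to 15.8 in control and 7.62 to 12.0 in DHT-treated GCs, without overlap but with an adjusted p of 0.16 (log2 fold change -0.75, SE 0.30). *Cxcr5* and *Ccr10*, also receptor genes of leukocytes, were at 42.7 to 53.7 and 15.8 to 30.7 in control and at 42.5 to 66.5 and 20.7 to 24.5 in DHT-treated GCs, with overlapping groups.

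Among the 11 interleukin and interleukin-binding protein genes, *Il18* and *Il7* passed the test, both higher, which was 18.2% beside 11.2% of all genes tested. *Il18* (ENSMUSG00000039217, chr9:50554827-50581840, plus strand), whose product is an IL-1 family cytokine released after cleavage by caspase-1, stood at 233, 252 and 212 in control and at 356, 389 and 455 in DHT-treated GCs. Every DHT-treated library exceeded every control library by a wide margin. The means were 232 ± 19.8 and 400 ± 50.2 (SD, n = 3), a log2 fold change of 0.78 (SE 0.11, adjusted p = 0.0025), the smallest adjusted p among the 76 genes. It was called under all 14 alternatives, with adjusted p between 0.002 and 0.029. *Il18bp*, which encodes the soluble inhibitor of IL-18, was at 121, 121 and 94.5 in control and at 71.4, 113 and 92.5 in DHT-treated GCs. These values overlapped, with a log2 fold change of -0.29 (SE 0.19, adjusted p = 0.39). *Il7*, a growth factor gene for lymphocytes, stood at 259, 330 and 323 in control and at 398, 435 and 416 in DHT-treated GCs. The groups were separate, with a log2 fold change of 0.46 (SE 0.10, adjusted p = 0.023), and the call was lost without DHT replicate 2 or DHT replicate 3, with an adjusted p of up to 0.096. *Il34*, which encodes a second ligand of the CSF1 receptor, was at 187, 199 and 192 in control and at 144, 156 and 176 in DHT-treated GCs, with separate groups but an adjusted p of 0.15 (log2 fold change -0.28). *Il6* and *Il33*, which encode cytokines of acute inflammation and tissue damage, were at 6.93 to 13.0 and 8.34 to 10.9 in control and at 9.79 to 11.7 and 7.83 to 16.4 in DHT-treated GCs. Both had overlapping groups and did not pass, with log2 fold changes of 0.01 (SE 0.34) and 0.26 (SE 0.35). *Il4*, *Il15*, *Il16*, *Il17d* and *Il23a* had overlapping groups, with log2 fold changes from -0.19 to 0.05.

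The interleukin receptors were the largest family, with 20 genes, of which 2 were called, both lower, beside 11.2% of all genes tested. *Il4ra*, the subunit shared by the IL-4 and IL-13 receptors, was at 564, 482 and 439 in control and at 282, 391 and 375 in DHT-treated GCs. DHT replicate 1 was the lowest library, and the groups did not overlap (log2 fold change -0.51, SE 0.14, adjusted p = 0.045). *Il17rd*, whose product Sef inhibits fibroblast growth factor signalling, was at 1698, 1651 and 1999 in control and at 1570, 1370 and 1297 in DHT-treated GCs, for a log2 fold change of -0.34 (SE 0.09, adjusted p = 0.041). Control replicate 3 was the highest library, and the gap between the groups was narrow. The call of *Il4ra* was kept only without control replicate 3 among the libraries left out, and that of *Il17rd* only without DHT replicate 1, with adjusted p of up to 0.12 and 0.15. Exons of *Il4ra* share 571 bases with the antisense gene *Gm44876*, and reads of the pair cannot be told apart without strand. *Il13ra1*, which pairs with *Il4ra* in the type II IL-4 receptor, was at 101, 114 and 144 in control and 77.3, 77.5 and 89.2 in DHT-treated GCs, with an adjusted p of 0.068, and passed only without control replicate 1 (log2 fold change -0.65, adjusted p = 0.049).

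*Il17ra*, *Il17rc* and *Il10rb* had small positive differences that did not pass. *Il17ra*, the common IL-17 receptor subunit, was at 1954 to 2197 in control and 2270 to 2450 in DHT-treated GCs (log2 fold change 0.19, adjusted p = 0.061), and its partner *Il17rc* was at 480 to 516 and 540 to 597 (0.23, adjusted p = 0.068). *Il10rb*, the subunit shared by receptors of IL-10, IL-22 and interferon lambda, was at 1894 to 2050 and 2122 to 2286 (0.16, adjusted p = 0.07). The groups did not overlap for these 3 genes, yet the changes were small. *Il1r1*, the signalling receptor of IL-1, was at 837, 1118 and 1166 in control and at 1267, 1249 and 1215 in DHT-treated GCs, with control replicate 1 the lowest library and an adjusted p of 0.16. *Il20rb* was at 86.1, 99.4 and 151 in control and at 160, 189 and 150 in DHT-treated GCs, and passed only without control replicate 3 (log2 fold change 0.83, adjusted p = 0.0077). *Il27ra*, at 28.7, 14.9 and 21.3 in control and 3.91, 12.0 and 14.1 in DHT-treated GCs, had the largest negative value of the family at -1.15, but its SE was 0.46 and its adjusted p was 0.16. *Il2rb*, *Il9r* and *Il10ra*, receptor genes of lymphocytes and other leukocytes, were at 8.34 to 41.8 in control and 10.9 to 43.5 in DHT-treated GCs, and none passed (log2 fold changes of 0.40 to 0.52). The groups overlapped for *Il9r* and *Il10ra* but not for *Il2rb*, at 19.5 to 25.7 and 27.3 to 42.4. *Il1rap*, *Il1rl2*, *Il3ra*, *Il15ra* and *Il23r* lay between 0.01 and 0.17, with overlapping groups.

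The shared receptor of the IL-6 family was abundant, and neither it nor the LIF genes passed the test. *Il6st*, which encodes gp130, stood at 4995 to 5323 in control and 4829 to 5307 in DHT-treated GCs, for a log2 fold change of -0.05 (SE 0.05, adjusted p = 0.57). *Lif*, which like *Il6* encodes a gp130 cytokine, was at 194, 256 and 218 in control and at 160, 183 and 171 in DHT-treated GCs. The groups did not overlap, but the log2 fold change of -0.37 (SE 0.12) had an adjusted p of 0.097. *Lifr* was at 467 to 615 and 426 to 485 (log2 fold change -0.21, adjusted p = 0.24), and *Osmr*, which encodes the oncostatin M receptor, at 42.5 to 53.0 and 28.4 to 41.4 (-0.51, adjusted p = 0.17). *Il6ra* and *Il11ra1*, the receptor subunits that give gp130 its response to IL-6 and IL-11, had log2 fold changes of -0.06 (SE 0.18) and 0.00 (SE 0.06).

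Macrophage colony-stimulating factor and its receptor were both downregulated. *Csf1* (chr3:107741048-107760469, minus strand), which encodes the factor that keeps macrophages alive, was at 419, 381 and 377 in control and at 265, 315 and 289 in DHT-treated GCs. The groups were clearly apart, with a log2 fold change of -0.44 (SE 0.09, adjusted p = 0.016). *Csf1r*, its receptor, was at 115, 92.9 and 98.2 in control and at 71.4, 62.2 and 60.9 in DHT-treated GCs, for a log2 fold change of -0.64 (SE 0.15, adjusted p = 0.027). The groups did not overlap, and no library stood apart from its group. The call of *Csf1* was lost without DHT replicate 1 or DHT replicate 3 (adjusted p up to 0.062), and that of *Csf1r* without control replicate 1, DHT replicate 2 or DHT replicate 3 (up to 0.1). Exons of *Csf1r* share 873 bases, 15.1% of its exonic length, with *Hmgxb3* on the other strand. *Csf1r* is itself a macrophage gene, and beside it the leukocyte marker sums of the groups overlapped, as given above, but *Lyz2* and *Cd68*, at means of 274 and 129 in control and 263 and 125 in DHT-treated GCs, made up most of them. The complement genes *C1qb* and *C1qc* of that list were at 15.7 to 21.4 and 11.1 to 19.5 in control and at 7.62 to 20.5 and 7.83 to 10.9 in DHT-treated GCs, and the macrophage lectin gene *Mrc1* at 10.9 to 19.5 and 4.35 to 10.9. The remaining markers had log2 fold changes of -0.77 for *Tyrobp*, -0.41 for *Fcer1g*, -0.11 for *Lyz2*, -0.07 for *Cd68*, 0.05 for *Laptm5*, 0.17 for *Cd79a*, 0.23 for *Cd14* and 0.72 for *Ptprc*, and over the 11 markers 4 were positive and 7 negative, none of them called. Their part in the *Csf1r* difference was not tested. Among 57 ligand and receptor pairs written down, 15 had both genes listed, and *Csf1* with *Csf1r* was the 1 pair in which both were called. Of single genes, 11.2% of all tested were called, and no such share was computed for pairs. Both calls were lost in a fit with the replicate number as a block (adjusted p = 0.066 for *Csf1* and 0.065 for *Csf1r*). Of 4 pairs with 1 called gene, *Cxcl12* with *Cxcr4* and with *Ackr3*, *Il34* with *Csf1r* and *Il18* with *Il18bp*, the other gene is described above.

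The receptors of granulocyte-macrophage colony-stimulating factor did not pass. *Csf2ra*, the ligand-binding subunit, was at 957 to 1125 in control and 911 to 954 in DHT-treated GCs. *Csf2rb*, the signalling subunit, was at 67.8 to 74.1 and 88.1 to 121, and its neighbour and close paralog *Csf2rb2* at 16.7 to 24.2 and 30.5 to 33.3. The groups did not overlap for either paralog, and the log2 fold changes of 0.47 and 0.60 had adjusted p of 0.1 and 0.14. Since only unique reads were counted, reads that map to both paralogs would be in neither value, and their number was not measured.

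The TNF superfamily was led by receptors. *Tnfrsf12a*, which encodes the TWEAK receptor Fn14, was at 7890 to 8548 in control and 7945 to 8743 in DHT-treated GCs, with overlapping groups (log2 fold change 0.05, SE 0.05, adjusted p = 0.6). Its ligand gene *Tnfsf12*, for TWEAK, was at 272, 194 and 239 in control and at 242, 239 and 235 in DHT-treated GCs. *Tnfrsf1a*, the main TNF receptor gene, was at 2543 to 2664 and 2322 to 2462, a separation of groups by a log2 fold change of only -0.11 (adjusted p = 0.14). *Tnfrsf1b*, for the other TNF receptor, was at 199 to 264 and 298 to 321 (0.38, adjusted p = 0.071). Of the 11 receptors, *Tnfrsf22* was upregulated and *Tnfrsf21* downregulated, which was 18.2% beside 11.2% of all genes tested. *Tnfrsf22*, a decoy receptor gene for the death ligand TRAIL, was at 167, 209 and 173 in control and at 246, 262 and 262 in DHT-treated GCs, for a log2 fold change of 0.49 (SE 0.11, adjusted p = 0.022). Its neighbour and paralog *Tnfrsf23*, 16.1 kb away on chromosome 7, was at 186, 263 and 215 in control and 258, 239 and 230 in DHT-treated GCs and did not pass (0.14, adjusted p = 0.55). Per the methods only unique reads were counted, so a read that maps to both paralogs would be in neither value. *Tnfrsf21*, for death receptor 6, was at 662, 624 and 594 in control and at 508, 524 and 542 in DHT-treated GCs, for a log2 fold change of -0.25 (SE 0.07, adjusted p = 0.038). The groups were apart but the change was small. The call of *Tnfrsf22* was lost without control replicate 1, DHT replicate 2 or DHT replicate 3 (adjusted p up to 0.092), and that of *Tnfrsf21* was kept only without control replicate 3 (up to 0.12 otherwise). *Tnfrsf10b*, the signalling TRAIL receptor gene, was at 1483 to 1705 and 1245 to 1503 (-0.22, adjusted p = 0.12), and passed only without DHT replicate 1 (-0.30, adjusted p = 0.036). *Tnfrsf4*, *Tnfrsf8*, *Tnfrsf18* and *Tnfrsf19*, receptor genes known mainly from lymphocytes or development, had overlapping groups and log2 fold changes from -0.49 to 0.20. None of the 5 TNF ligand genes passed, beside 11.2% of all genes tested. An unadjusted p under 0.05 was reached by 0 of them, beside 25.2% of all genes tested, and their log2 fold changes ran from -0.26 to 0.15. One of them, *Tnfsfm13*, is a read-through of *Tnfsf12* and *Tnfsf13* and shares exons with both, and *Tnfsf13os* is an antisense RNA of that locus, so their values are uncertain.

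Per kb of exon, the 76 genes spanned from 3.15 for *Cxcl3* to 4207 for *Tnfrsf12a* in control GCs, with a median of 36.4 beside 163 over all genes tested, and 17 of them lay above the median of all genes tested. *Tnfrsf12a* was followed by *Tnfrsf1a* at 1001, *Ccl17* at 889, *Cxcl12* at 575, *Il10rb* at 522 and *Il6st* at 465. In DHT-treated GCs the level per kb of *Ccl17* was 1224, that of *Cxcl12* 230, that of *Cxcl1* 470 and that of *Cxcl5* 367. In the control mean, *Cxcl12* was above *Cxcl1* at 228 and *Cxcl5* at 135, and in the DHT-treated mean it was below both. The lowest genes were *Cxcl3*, *Il10ra* at 3.18 and *Il33* at 3.40. Precision followed level: the median SE was 0.33 for the 23 genes with a mean under 50 normalized counts and 0.12 for the other 53, and no gene under 50 was called.

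**Figure D4:**
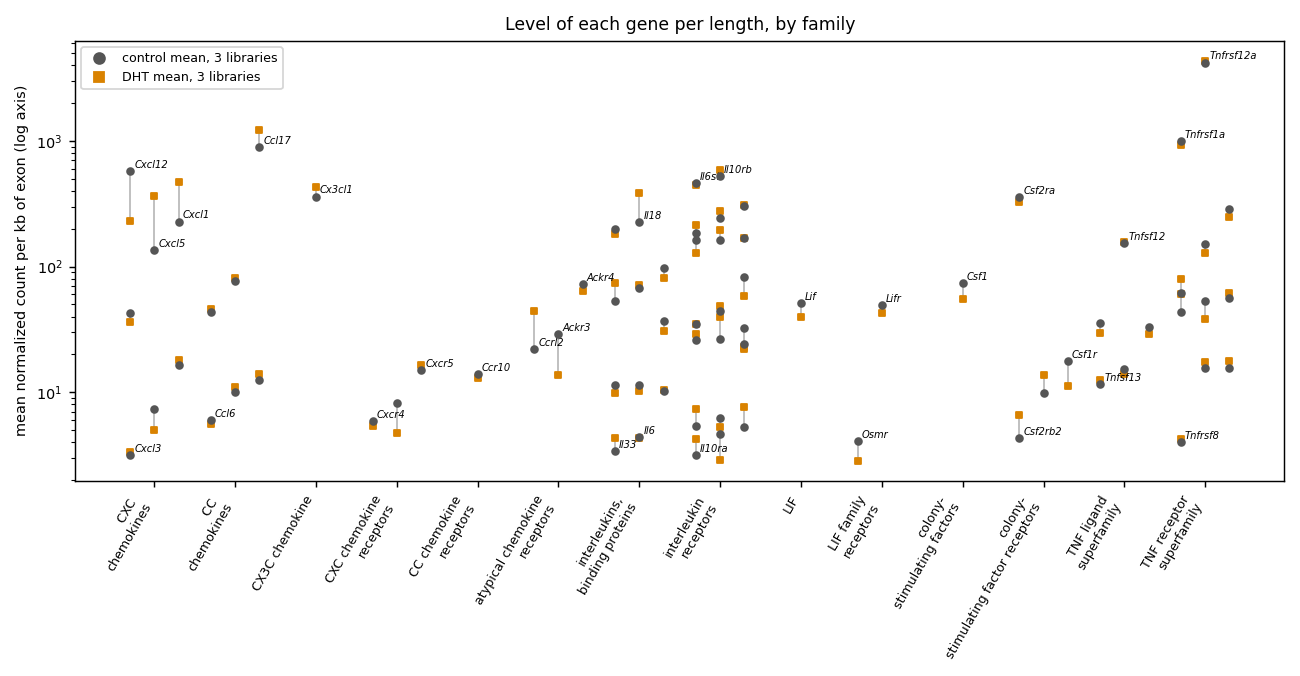
Mean normalized count per kb of exon (y axis, log scale) of each gene in control (circles) and DHT-treated GCs (squares), by family, with a line joining the group means of a gene. The long lines are those of *Cxcl5*, *Cxcl12*, *Il27ra*, *Ackr3*, *Cxcl1* and *Ccrl2*, of which the CXC ligands passed the test, while *Tnfrsf12a* has the highest level in both groups.

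Downstream signalling genes were described from lists of NF-κB and of JAK-STAT components. Of 37 genes on the NF-κB list, 35 were listed in the table and 3 were called, all higher, which was 8.57% beside 11.2% of all genes. *Rel*, which encodes the NF-κB subunit c-Rel, stood out at 1993, 2063 and 2368 in control and at 4309, 4477 and 4713 in DHT-treated GCs. The groups were far apart, with a log2 fold change of 1.07 (SE 0.07, adjusted p = 4.7e-05), and the gene was called under all 14 alternatives. The other NF-κB subunit genes had log2 fold changes of 0.06 for *Rela*, -0.02 for *Relb*, -0.06 for *Nfkb1* and -0.02 for *Nfkb2*, and none of these passed (adjusted p from 0.39 to 0.96). *Irak2*, a kinase gene of IL-1 receptor signalling, was at 1066 to 1193 in control and 1335 to 1356 in DHT-treated GCs (log2 fold change 0.28, adjusted p = 0.012). *Nfkbia*, which encodes the inhibitor IκBα, was at 834 to 962 and 1020 to 1061 (0.23, adjusted p = 0.049). The call of *Nfkbia* was lost under quantile normalization (adjusted p = 0.054) and without any one library other than control replicate 3 (up to 0.16), and that of *Irak2* without DHT replicate 3 (0.054). The median log2 fold change of the list was 0.02. The 250 bases before *Rel* (chr11:23770970-23771219, minus strand) held 1 match to the κB form searched above, from 91 to 82 bases before its start site.

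Of 25 genes on the JAK-STAT list, 24 were listed and 4 were called, 2 in each direction, which was 16.7% beside 11.2% of all genes tested. *Stat5a*, which transmits prolactin and cytokine signals, was higher at 9258 to 10115 in DHT-treated GCs than at 7424 to 8167 in control (log2 fold change 0.33, SE 0.05, adjusted p = 0.0031). *Socs7*, of a family of signalling inhibitors, was at 2079 to 2141 in control and 2317 to 2474 in DHT-treated GCs (0.19, adjusted p = 0.018). *Jak1*, the kinase shared by most of these receptors, was at 8876 to 10018 and 7948 to 8345 (-0.22, adjusted p = 0.021). These 3 changes were small, and none of the 3 genes had overlapping groups. The median log2 fold change of the list was 0.05. The call of *Jak1* was lost without any one library other than control replicate 3 (adjusted p up to 0.075), and that of *Socs7* without control replicate 2, DHT replicate 1 or DHT replicate 2 (up to 0.084). Over both lists 7 genes were called, and 4 without any one of control replicate 2, DHT replicate 2 and DHT replicate 3, where 8.42%, 5.96% and 5.77% of all genes tested were called.

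**Figure D5:**
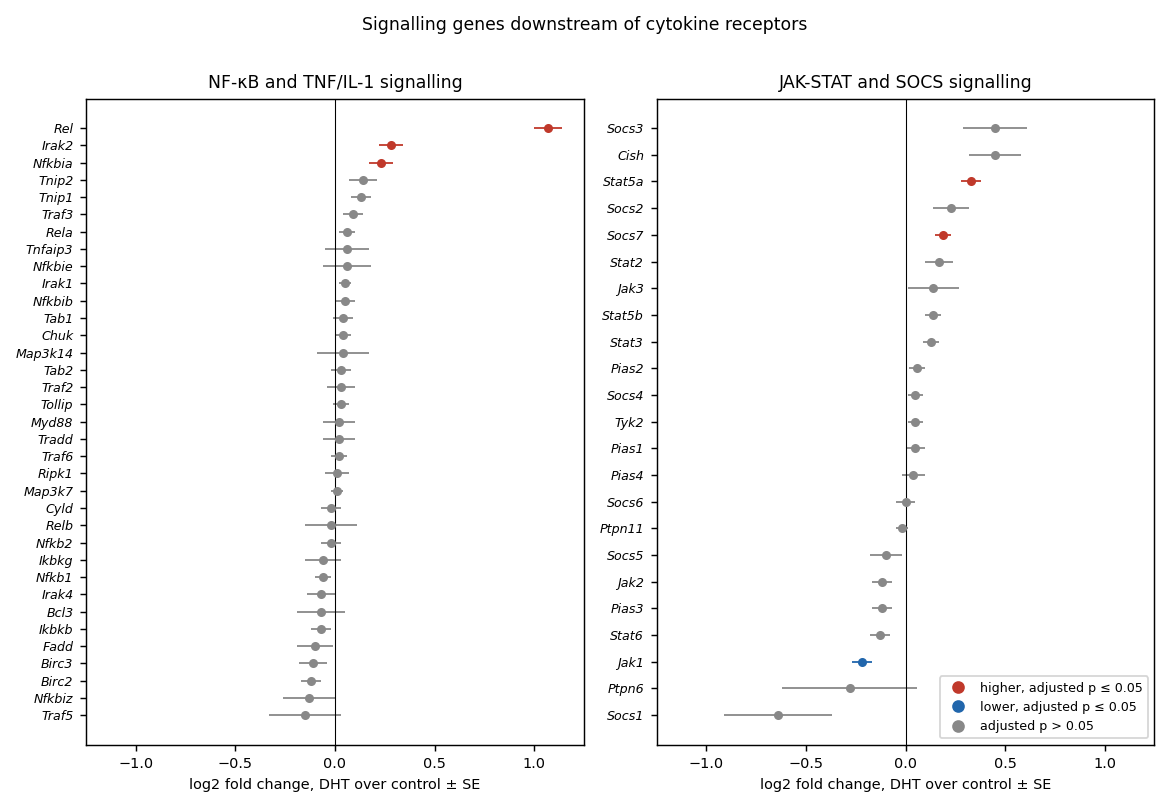
Log2 fold change (DHT over control, x axis) with bars of 1 SE for genes of NF-κB and TNF/IL-1 signalling (left) and of JAK-STAT and SOCS signalling (right). *Rel* at 1.07 lies far to the right of every other NF-κB gene, and the called JAK-STAT genes drawn lie within 0.33 of zero.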

How the data were processed

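Reads were trimmed by the authors (Trimmomatic 0.36), aligned to GRCm38 (STAR 2.5.2b) and counted uniquely over exons (featureCounts, Subread 1.5.2). As signal the authors deposited, for each gene, its count over the DESeq2 size factor of the library, here called a normalized count. Every value was a whole multiple of 1 step per library (tolerance 0.01), from which the read totals were computed. The log2 fold change, p-value and adjusted p-value columns that the authors deposited hold their own comparison and were not used. A second deposited table of 190 of the same genes was not used.

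The limma test (version 3.58.1, R 4.3.3) used an intensity trend and took log2(value + 1) as input, for 16292 genes whose mean over the 6 libraries reached 10. The p-values were two-sided and adjusted by Benjamini-Hochberg over all genes tested, and the threshold for a call was 0.05. The test was checked on simulated data. The smallest p that an exact permutation test can give for 3 libraries against 3 is 0.1. Per the methods each library was a pool of GCs from 5 mice, with 3 such pools per treatment, so p-values measure the spread between pools. Whether a control and a DHT library drew on the same mice is not given in the sources used here.

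Positions, overlaps and exonic lengths came from GENCODE for GRCm38, with 16265 gene IDs matched and 35 not. Levels between genes were compared per kb of exon. Genes were described one by one if they were called, were ligand or receptor partners of a called gene, had the highest level per length of their family, had a known role in the ovary, or were called on a signalling list. The remaining genes were named after their values were seen. On the signalling lists, 1 gene is counted but not reported here. The genes and lists were chosen with earlier results of these data known. The alternatives were pseudocounts of 0.5 and 8, no filter, a mean of at least 50, TMM scaling, quantile normalization, no intensity trend, the replicate number as a block, and each library left out in turn.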

Additional observations from a re-analysis of the deposited data

How the results depend on the processing

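Pseudocounts of 0.5 and 8, no filter, a mean of at least 50, TMM scaling and quantile normalization called the same 12 genes. With a mean of at least 50, these were 22.6% of 53 genes, beside 14.5% of all genes tested. In the others of these fits they were 15.8%, beside 11.1% to 11.4% of all genes tested. Without the intensity trend, 1 gene was called higher and 2 lower (*Il18*, *Csf1* and *Csf1r*), which was 3.95% beside 4.93% of all genes, with 0 past both thresholds in either direction, and 3 genes on the signalling lists. A replicate block kept 5 of the 12 calls (*Cxcl1*, *Cxcl5*, *Cxcl12*, *Il18* and *Il7*), 1 of them lower, which was 6.58% beside 6.08% of all genes, and called 4 signalling genes. The numbers were not taken as a pairing, since the correlations of same-numbered libraries were 0.00583, 0.0666 and -0.238. When single libraries were left out, 3 to 8 genes were higher and 1 to 6 lower, 1 to 3 were higher and 1 to 2 lower past both thresholds, and 4 to 9 signalling genes were called. The calls in these fits were 5.33% to 18.4% of the chemokine, cytokine and receptor genes tested, beside 5.77% to 13.0% of all genes tested. The cause of the lost calls was not tested.

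Signs under the alternatives were followed only for the genes chosen as given above, and not for all 76. Among those that were not called, the sign of the log2 fold change depended on single libraries for *Cxcr4* (-0.49 to 0.32), *Ccr10* (-0.33 to 0.13, and 0.01 without control replicate 3), *Cxcr5* (-0.02 to 0.29), *Tnfsf12* (-0.10 to 0.15), *Cxcl3* (-0.23 to 0.19, and -0.04 without control replicate 1), *Ccl2* (-0.68 to 0.72, and 0.17 without control replicate 2) and *Il6* (-0.24 to 0.17, and -0.07 without DHT replicate 1), and *Ccl2* and *Il6* were at 0.00 with a pseudocount of 8. The 2 planned tests on recovered counts were not run, and the analysis was kept to the scaled values as deposited. Low levels limit the 23 genes with a mean under 50.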
